A study of Mus musculus with 6 samples.

Results

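The Bcl2 family was followed in clonal MIN6 β cell lines through 10 of its genes. They were chosen as a list of well known members with opposite actions, 3 protective (*Bcl2*, *Bcl2l1*, *Mcl1*), 2 effectors (*Bax*, *Bak1*) and 5 BH3-only activators or sensitizers (*Bbc3*, *Pmaip1*, *Bcl2l11*, *Bid*, *Bad*), out of 53801 mouse genes listed in the data, and they were matched to the data by Ensembl identifier. MIN6 is a mouse insulinoma line that makes insulin. All 6 lines came from MIN6 cells that express Cas9, were infected with a lentivirus carrying a guide RNA against *Snd1* together with puromycin resistance, were selected with puromycin and were expanded from single cells. In the 3 Control lines the guide targeted intron 2 of *Snd1*, and in the 3 *Snd1* KO lines exon 2. The study used 2 exon 2 guides, 1 shown for *Snd1* KO 1 and *Snd1* KO 2 and the other for *Snd1* KO 3. A major deletion is shown for *Snd1* KO 2. Messenger RNA was sequenced from 1 library per line, so a line, a clone and a library are the same unit here, and the n of 3 per group counts clones. *Snd1* encodes a nuclease and Tudor domain coregulator. The comparison asks whether the RNAs that set the threshold for mitochondrial cell death differ between *Snd1* KO and Control clones.

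The proteins of the Bcl2 family decide whether the outer membrane of the mitochondrion is opened, the step that releases cytochrome c and starts the caspases. BAX and BAK open the membrane, BCL2, BCL-XL (from *Bcl2l1*) and MCL1 hold them back, and the BH3-only proteins carry stress signals by binding to either kind with a short helix, the BH3 domain. In β cells this pathway is known for its part in death under endoplasmic reticulum stress, cytokines and lipid excess.

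The BH3 core is shown for the 9 members whose RNA was above the filter described below, because the BH3-only members bind the others through it. The protective and effector members carry a core too. Each line gives 27 bases, 9 codons, of the longest complete coding sequence of the gene in GENCODE M21 on GRCm38, 5′ to 3′ on the strand of the gene, with the leucine codon and the aspartate codon of the core in capitals.
*Bcl2*, chr1:106712575-106712601, minus strand, exon 1 of 2: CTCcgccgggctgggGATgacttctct
*Bcl2l1*, chr2:152829697-152829723, minus strand, exon 2 of 3: CTGagagaggcaggcGATgagtttgaa
*Mcl1*, chr3:95659436-95659462, plus strand, exon 1 of 3: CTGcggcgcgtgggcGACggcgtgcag
*Bax*, chr7:45465997-45466023, minus strand, exon 3 of 6: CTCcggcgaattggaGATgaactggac
*Bak1*, chr17:27022531-27022557, minus strand, exon 4 of 6: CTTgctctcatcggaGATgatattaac
*Bbc3*, chr7:16313773-16313799, plus strand, exon 3 of 4: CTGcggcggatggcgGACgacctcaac
*Bcl2l11*, chr2:128147150-128147176, plus strand, exon 3 of 4: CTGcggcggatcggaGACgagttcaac
*Bid*, chr6:120897289-120897315, minus strand, exon 4 of 6: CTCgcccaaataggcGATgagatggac
*Bad*, chr19:6950792-6950818, plus strand, exon 3 of 4: CTCcgaaggatgagcGATgagtttgag

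The search asked for a leucine codon, 3 codons of any kind, a glycine, alanine or serine codon, an aspartate codon, 1 codon of any kind and a hydrophobic codon. That pattern was written from the known core, so its single match in each of the 9 members describes them and is no finding, and 12.3% of 21782 coding genes hold a match. The closest pair was *Bbc3* and *Bcl2l11*, with the same base at 22 of 27 positions. *Bax* shared 19 of 27 bases with *Bid* and with *Bcl2l11*.

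*Snd1* was checked first as the targeted gene. It stood at 113, 119 and 112 TPM (a read count scaled by gene length and depth) in Control clones 1, 2 and 3 and at 14.7, 57.1 and 19.9 TPM in *Snd1* KO clones 1, 2 and 3. The RNA was lower in every KO clone than in every Control clone and was still present in all 3. The study judged these knockouts by SND1 protein on immunoblots and by indels in exon 2, which RNA levels do not measure. The clones held 23738429 to 30477047 reads on genes, and the TPM values therefore rest on similar depth. Control 1 and Control 2 were the most alike pair (correlation of log2(TPM + 1) 0.98 over 11368 genes), and *Snd1* KO 2 and *Snd1* KO 3 followed (0.974), whereas Control 3 had correlations of 0.949 with *Snd1* KO 2 and 0.955 with *Snd1* KO 3, and of 0.943 and 0.936 with Control 1 and Control 2. These correlations share their genes and are descriptions. Of 9 β cell markers, all 9 were detected in all clones, with *Ins2* between 11194 and 18632 TPM and *Pdx1* between 1634 and 2164 TPM. Of 11 markers of other cell types only *Gcg*, the glucagon gene, was abundant, at 267, 174 and 314 TPM in Control clones and 1100, 55.2 and 148 TPM in *Snd1* KO clones, while the pancreatic acinar genes *Cpa1* and *Prss2* had 0 reads in every clone and the other 8 reached at most 2.76 TPM. The part of *Gcg*-expressing cells in any value below was not tested. In RNA from a whole culture, fewer cells that express a gene and less RNA per cell cannot be told apart.

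To order the members by level, each exonic base was counted once in the length of a gene, which is called exon-union TPM here. The deposited TPM divides by a length to which every annotated transcript adds its own exons, and is not comparable between genes. On the exon-union scale *Mcl1* was highest, with 104 ± 11 TPM (SD, n = 6 clones), followed by *Bax* with 96.3 ± 18.9 TPM. These neighbours overlapped, with *Mcl1* above *Bax* in 3 of 6 clones, although on the deposited scale *Mcl1* lay above *Bax* in all 6. *Bak1* came next at 36.6 ± 3.65 exon-union TPM and *Bad* at 31.4 ± 2.58, again with overlapping ranges. *Bcl2l1* stood at 22.3 ± 2.84, *Bbc3* at 16.6 ± 4.67 and *Bcl2l11* at 14 ± 3.15 exon-union TPM, and *Bid* at 6.34 ± 1.75. *Bcl2* itself was the lowest member with more than a few reads, at 3.79 ± 3.35 exon-union TPM. In this order *Bax* and *Bak1*, *Bad* and *Bcl2l1*, *Bcl2l11* and *Bid*, and *Bcl2* and *Pmaip1* had ranges over the 6 clones that did not overlap, and all other neighbours did. *Pmaip1* had at most 3 reads in a clone.

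**Figure D1:**
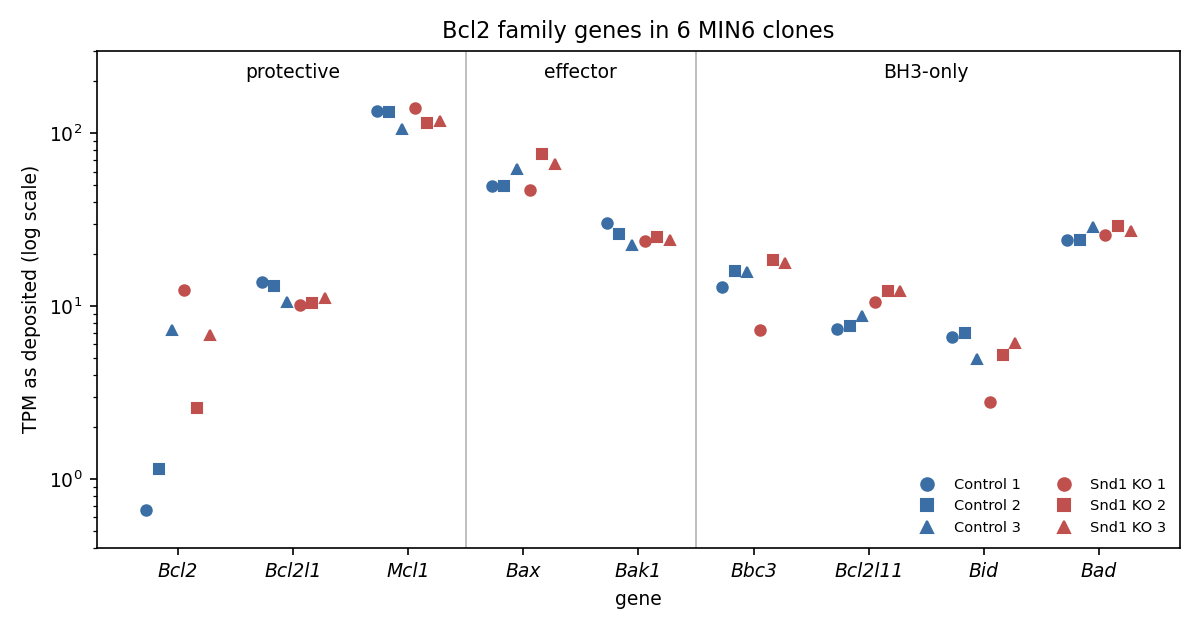
Deposited TPM (log axis) of the 9 Bcl2 family genes above the filter, 1 point per clone, with Control clones in blue, *Snd1* KO clones in red and the clone number by shape. *Bcl2* spreads from 0.661 to 12.4 TPM, while *Bad* stays between 24.2 and 28.9 TPM.

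The comparison of *Snd1* KO with Control used limma on log2(deposited TPM + 1), so a log2 fold change below is on that scale and understates the change of genes near 1 TPM. A gene was called at an adjusted p under 0.05 with at least a 2-fold difference. Of 17823 genes tested, 0.00561% were called, 1 gene, which is no member. *Snd1* was not called in this fit either (log2 fold change -2.11 with a standard error of 0.45, limma adjusted p = 0.511), although it was lower in all 3 KO clones. With its own analysis, the study reported many more differentially expressed genes between *Snd1* KO and Control lines, both higher and lower. The reason for this gap was not tested. A gene that was not called here is therefore not shown to be unchanged. None of the 9 members tested was called (limma), 4 being higher and 5 lower in *Snd1* KO clones, with a median log2 fold change of -0.0050 beside 0.04 over all genes tested. At an unadjusted p under 0.05, 1 of 9 members passed, beside 7.96% of all genes. That member was *Bcl2l11*, and it was also the 1 member whose groups did not overlap, each *Snd1* KO clone lying above each Control clone, beside 9.69% of all genes. On deposited TPM no member was lower in every KO clone, beside 4.03% of all genes. The count of members lower depended on the scaling and on single clones, and the count of members higher on single clones. After median ratio scaling *Bcl2l1* and *Bak1* were lower in every KO clone, beside 6.78% of all genes. Without Control 3, *Bcl2l1*, *Bak1* and *Bid* were lower in every KO clone, beside 17.9% of all genes, and *Bcl2* and *Bad* joined *Bcl2l11* among those higher, beside 17.2%. Without *Snd1* KO 1, *Bax* and *Bbc3* joined *Bcl2l11* among those higher, beside 22.6%, and without *Snd1* KO 3, *Bcl2l1* was lower, beside 7.53%. The 3 clones of a group measure the spread between clones, and with 3 against 3 an exact permutation test cannot go below 0.1.

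**Figure D2:**
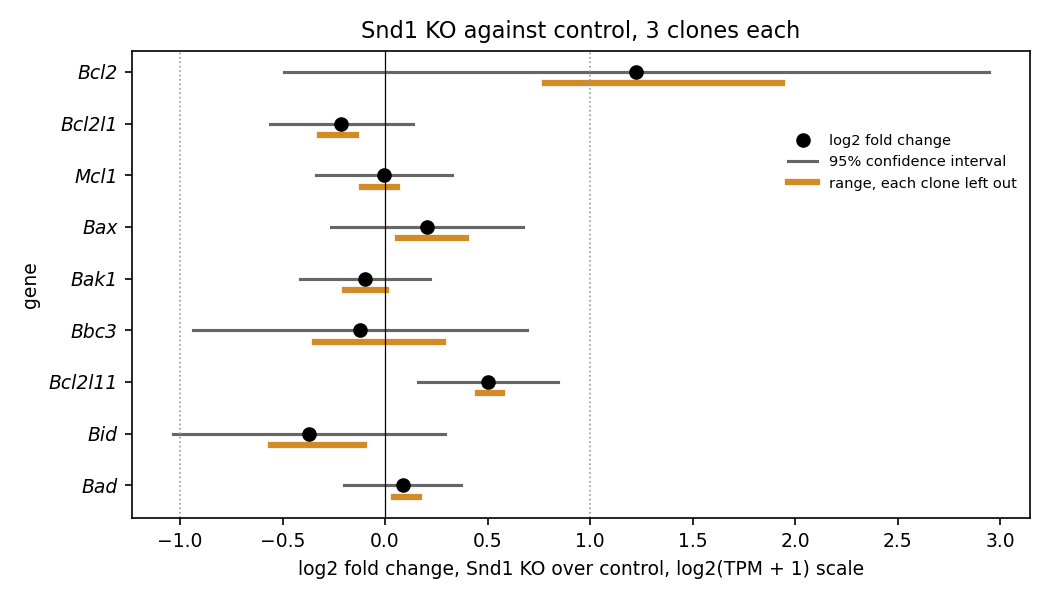
Log2 fold change of *Snd1* KO over Control for the 9 members tested (points) with the 95% confidence interval of limma (grey), the range when each clone is left out (orange) and the 2-fold threshold (dotted). Among these members only the interval of *Bcl2l11*, from 0.16 to 0.84, lies to 1 side of 0, before adjustment over all genes.

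Among the protective members, *Bcl2* (ENSMUSG00000057329, chr1:106538178-106714274, minus strand) varied most. BCL2 is the founding member of the family and sits on the mitochondrial and endoplasmic reticulum membranes. Its level was 0.661, 1.14 and 7.27 TPM in Control clones 1, 2 and 3 and 12.4, 2.59 and 6.81 TPM in *Snd1* KO clones 1, 2 and 3, from 38, 62 and 361 and from 642, 129 and 364 reads. The range over the clones was 18.8-fold. The exact 95% Poisson interval was 0.468 to 0.907 TPM in Control 1 and 11.5 to 13.4 TPM in *Snd1* KO 1. These intervals cover counting error only. Control 1 and Control 2 were low, but Control 3 lay above *Snd1* KO 2 and *Snd1* KO 3, so the groups overlapped. The group means were 3.02 ± 3.69 and 7.26 ± 4.92 TPM (SD, n = 3 each), and the log2 fold change was 1.23 with a standard error of 0.72 and a 95% interval from -0.49 to 2.94 (limma adjusted p = 0.675; exact permutation p = 0.3). Its spread over the 6 clones was wider than that of 97.1% of the genes tested. The difference depended on single clones, being 1.94 on the log2 scale without Control 3, 0.78 without Control 1 and 0.78 without *Snd1* KO 1. With voom on the recovered reads it was 1.87 (limma adjusted p = 0.610). With limma's clone quality weights, which give less weight to clones far from their group, *Bcl2* was called (log2 fold change 1.79, limma adjusted p = 0.0360), in a fit that called 5.02% of all genes.

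*Bcl2l1* (ENSMUSG00000007659, chr2:152780668-152831728, minus strand), the gene of the protective BCL-XL, was at 13.8, 13.0 and 10.6 TPM in Control clones and at 10.2, 10.4 and 11.2 TPM in *Snd1* KO clones. Control 1 and Control 2 were highest, and Control 3 fell among the KO clones. The means were 12.5 ± 1.67 and 10.6 ± 0.553 TPM (SD, n = 3 each), and the log2 fold change was -0.21 with a standard error of 0.15 and an interval from -0.56 to 0.14 (limma adjusted p = 0.718; exact permutation p = 0.2). Leaving out Control 1 gave -0.14 on the log2 scale, and leaving out Control 3 gave -0.32.

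*Mcl1* (ENSMUSG00000038612, chr3:95658788-95663176, plus strand) encodes a short-lived protective protein. Its level was 135, 132 and 106 TPM in Control clones and 140, 114 and 118 TPM in *Snd1* KO clones, from 2252 to 3306 reads. The lowest clone was Control 3 and the highest *Snd1* KO 1, and the groups overlapped. The log2 fold change was -0.0050 with a standard error of 0.14 and an interval from -0.34 to 0.33 (limma adjusted p = 0.995). The sign of this value changed with the scaling.

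*Bax* and *Bak1* encode the effectors that oligomerize in the outer mitochondrial membrane. *Bax* (ENSMUSG00000003873, chr7:45461697-45466898, minus strand) was at 49.8, 49.3 and 62.4 TPM in Control clones and at 47.1, 75.5 and 66.2 TPM in *Snd1* KO clones. Control 3, *Snd1* KO 2 and *Snd1* KO 3 were high and the other 3 clones low, a division that crossed the groups. The means were 53.8 ± 7.41 and 62.9 ± 14.5 TPM (SD, n = 3 each), and the log2 fold change was 0.20 with a standard error of 0.20 and an interval from -0.27 to 0.67 (limma adjusted p = 0.792; exact permutation p = 0.4). Leaving out *Snd1* KO 1 gave 0.40 on the log2 scale, and leaving out *Snd1* KO 2 gave 0.06. *Bak1* (ENSMUSG00000057789, chr17:27019810-27029009, minus strand) was more even, at 30.2, 26 and 22.6 TPM in Control clones and 23.9, 25 and 24.1 TPM in *Snd1* KO clones. Its log2 fold change was -0.10 with a standard error of 0.13 (limma adjusted p = 0.864), and Control 1, the highest clone, decided its sign, since the value was 0.0050 without it.

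Among the BH3-only members, *Bcl2l11* (ENSMUSG00000027381, chr2:128126038-128162547, plus strand) showed the clearest separation. It encodes BIM, which binds all protective members and can activate BAX directly. Its level was 7.36, 7.72 and 8.80 TPM in Control clones and 10.5, 12.3 and 12.2 TPM in *Snd1* KO clones, from 717, 715 and 741 and from 924, 1041 and 1110 reads. Every KO clone lay above every Control clone, and the counting intervals of the nearest pair were 8.18 to 9.46 TPM in Control 3 and 9.86 to 11.2 TPM in *Snd1* KO 1. If mates of a pair were counted separately, these intervals are too narrow. Whether they would then stay apart was not tested. The means were 7.96 ± 0.750 and 11.7 ± 1.01 TPM (SD, n = 3 each), so the KO mean was 147% of the Control mean. The log2 fold change was 0.50 with a standard error of 0.14 and an interval from 0.16 to 0.84, a 1.42-fold difference (limma unadjusted p = 0.0107, adjusted p = 0.568; exact permutation p = 0.1, the smallest possible). It did not pass the adjustment over all genes or the 2-fold threshold. Leaving out each clone in turn gave log2 values from 0.45 to 0.57. The unadjusted p of limma was under 0.05 in 19 of 19 alternative fits, which reuse the same clones and are not independent. The same cut passed 4.28% to 32.6% of all genes over these fits. Their adjusted p for *Bcl2l11* ran from 0.0217 with clone quality weights to 0.986, and *Bcl2l11* reached the 2-fold threshold in none.

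*Bbc3* (ENSMUSG00000002083, chr7:16308393-16318205, plus strand) encodes PUMA, a BH3-only protein known as a target of p53 and of the stress factor CHOP. It was at 13.0, 15.9 and 15.7 TPM in Control clones and at 7.24, 18.6 and 17.8 TPM in *Snd1* KO clones. *Snd1* KO 1 was the lowest clone and *Snd1* KO 2 and *Snd1* KO 3 the highest, so the KO clones lay on both sides of the Control clones. The low value of *Snd1* KO 1 rests on 134 reads, and its counting interval of 6.07 to 8.58 TPM did not reach that of the next lowest clone, Control 1, at 11.4 to 14.6 TPM. The means were 14.8 ± 1.64 and 14.6 ± 6.34 TPM (SD, n = 3 each), and the log2 fold change was -0.12 with a standard error of 0.34 and an interval from -0.94 to 0.69 (limma adjusted p = 0.944; exact permutation p = 1). Without *Snd1* KO 1 the value was 0.28.

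*Bid* (ENSMUSG00000004446, chr6:120891930-120916853, minus strand) encodes the BH3-only protein that caspase 8 cleaves to carry death receptor signals to the mitochondrion. Its level was 6.66, 6.98 and 4.95 TPM in Control clones and 2.80, 5.22 and 6.12 TPM in *Snd1* KO clones. *Snd1* KO 1 was again lowest, with 89 reads and a counting interval of 2.25 to 3.45 TPM. The log2 fold change was -0.37 with a standard error of 0.28 and an interval from -1.03 to 0.29 (limma adjusted p = 0.746; exact permutation p = 0.3), and it was -0.10 without *Snd1* KO 1.

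*Bad* (ENSMUSG00000024959, chr19:6941861-6951899, plus strand) encodes a sensitizer that is silenced by phosphorylation under growth factor signaling. It was the most even member, at 24.3, 24.2 and 28.8 TPM in Control clones and 25.9, 28.9 and 27.3 TPM in *Snd1* KO clones, a range of 1.19-fold. Only 8.52% of the genes tested spread less over the 6 clones. The log2 fold change was 0.09 with a standard error of 0.12 and an interval from -0.20 to 0.37 (limma adjusted p = 0.864). Leaving out each clone in turn gave 0.05 to 0.17 on the log2 scale, the highest without Control 3.

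*Pmaip1* (ENSMUSG00000024521), the gene of the BH3-only protein NOXA that neutralizes MCL1, had 3, 0 and 1 reads in Control clones and 0 reads in each *Snd1* KO clone. In the 4 clones with 0 reads a floor of 3 reads corresponded to 0.209 to 0.229 TPM, and the upper end of the exact 95% Poisson interval to 0.257 to 0.281 TPM. These read counts are uncertain, because the gene length behind them was fitted to the few values above 0. The gene was below the filter of a mean of 0.5 TPM and was not tested, and a difference between groups was not detectable at this depth.

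**Figure D3:**
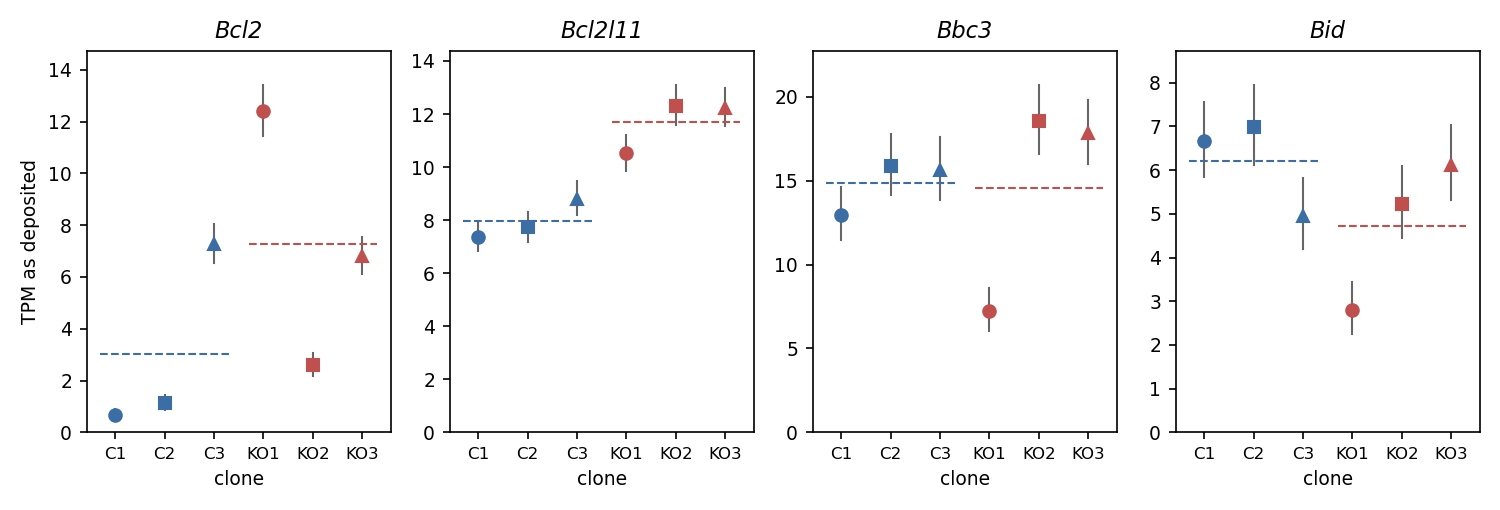
Deposited TPM of *Bcl2*, *Bcl2l11*, *Bbc3* and *Bid* in each clone (C1 to C3 Control, KO1 to KO3 *Snd1* KO) with exact 95% Poisson intervals of the recovered reads (lines) and group means (dashed). *Bcl2l11* separates the groups, while *Snd1* KO 1 holds the highest *Bcl2* and the lowest *Bbc3* and *Bid*.

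*Snd1* KO 1 was thus the extreme clone for *Bcl2*, *Bbc3* and *Bid*. It held the lowest value of 4 of the 9 members tested (*Bcl2l1*, *Bax*, *Bbc3* and *Bid*), beside 19.9% of all genes tested, and the highest value of 2 (*Bcl2* and *Mcl1*), beside 21.5% of all genes. In *Bcl2l1*, *Bax* and *Mcl1*, *Snd1* KO 1 was nearly tied with the next clone, with ratios of 1.02, 1.05 and 1.03. *Snd1* KO 2 held the highest value of 4 members (*Bax*, *Bbc3*, *Bcl2l11* and *Bad*), beside 25.4% of all genes, and the lowest of 0. In *Bbc3*, *Bcl2l11* and *Bad* this was again nearly a tie, with ratios to the next clone of 1.04, 1.01 and 1.003. The same clone, *Snd1* KO 1, had the lowest TPM of *Ddit3* (22.1 TPM, against 53.7 to 65.9 in the other 5 clones) and *Atf4* (192 TPM, against 315 to 404), the factors of the integrated stress response upstream of *Bbc3*, which are named here after their values were seen. It also had the highest *Gcg* (1100 TPM). Their part in the low *Bbc3* and *Bid* of this clone was not tested.

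Summed on the exon-union scale, protective members made up 139, 136 and 115 TPM in Control clones and 147, 118 and 126 TPM in *Snd1* KO clones. Effectors summed to 125, 119 and 136 TPM and to 113, 160 and 145 TPM, and BH3-only members to 61.2, 65.5 and 70.3 TPM and to 57.4, 78.6 and 77.2 TPM. The ratio of protective to effector RNA was 1.12, 1.15 and 0.849 in Control clones against 1.30, 0.733 and 0.870 in the KO clones. Protective RNA therefore exceeded effector RNA in Control 1, Control 2 and *Snd1* KO 1, and effector RNA was in excess in the other 3 clones, again across the groups. This order depended on the scale, since on deposited TPM protective RNA was in excess in all 6 clones, with ratios of 1.27 to 2.29, and it also depended on the members counted. With *Bcl2l2*, the gene of the protective BCL-W, which was even at 61.6 to 67.0 deposited TPM (log2 fold change 0.03, limma adjusted p = 0.956), the exon-union ratio was 1.27 to 2.06. With *Bok*, a BAX-like effector, also added to the other side, it was 1.02 in *Snd1* KO 2 and up to 1.83 in the other clones.

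**Figure D4:**
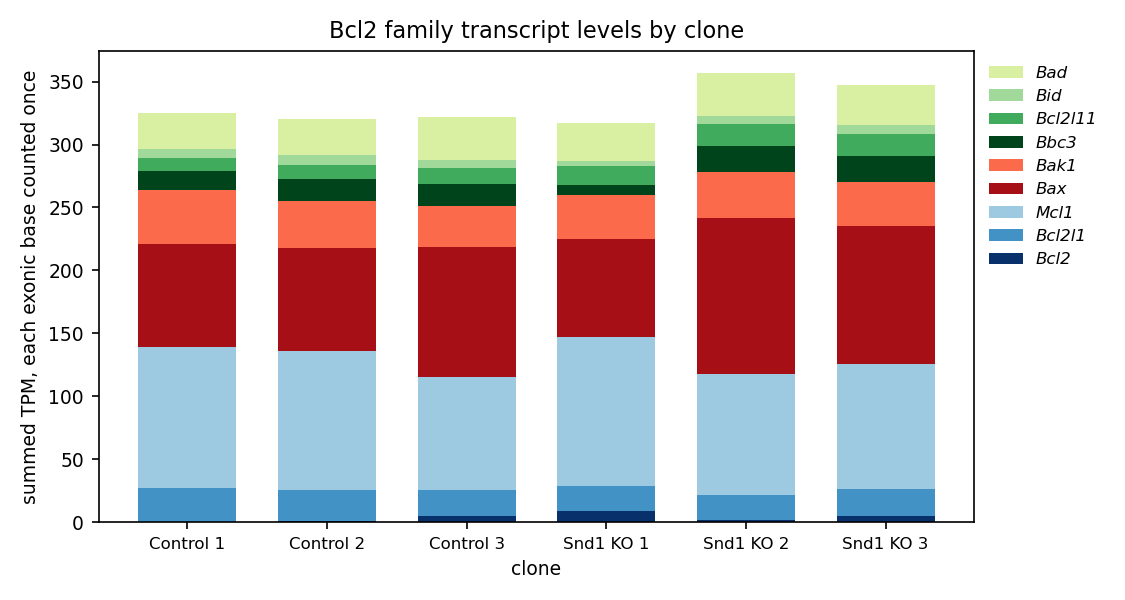
Exon-union TPM summed over the protective, effector and BH3-only members in each clone, stacked by member. *Mcl1* makes up 77.5% to 81.3% of the protective sum in every clone, and the *Bax* segment is largest in *Snd1* KO 2, *Snd1* KO 3 and Control 3.

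*Mcl1* carried most of the protective RNA, 77.5% to 81.3% on the exon-union scale, whereas *Bcl2* contributed 0.346%, 0.609% and 4.64% in Control clones, against 6.24%, 1.61% and 3.99% in the KO clones. The commonly used ratio of *Bax* to *Bcl2* moved with *Bcl2*, at 169, 97.6 and 19.3 in Control clones against 8.53, 65.6 and 21.9 in the KO clones on the exon-union scale, with overlapping groups. The ratio of *Bcl2l11* to *Bcl2l1*, the BH3-only activator over a protective partner, was 0.390, 0.436 and 0.607 in Control clones against 0.759, 0.869 and 0.801 in the KO clones, and these groups did not overlap. The ratio of *Bcl2l11* to *Mcl1* overlapped, at 0.0923, 0.0989 and 0.140 and at 0.128, 0.182 and 0.176. All these sums and ratios are of RNA, were chosen with the levels of the members known, and are given without a test.

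The genes whose profile over the 6 clones was nearest to that of *Bcl2*, the member with the widest spread, were *Cntnap2*, *Gatm* and *Car10*, with a root mean square difference of the centred log2(TPM + 1) of 0.32, 0.33 and 0.42 among 11367 genes compared. *Cntnap2*, a neurexin-like adhesion protein, was at 1.29, 1.26 and 9.80 TPM in Control clones and 10.2, 4.71 and 10.5 TPM in *Snd1* KO clones. *Gatm*, an enzyme of creatine synthesis, was at 12.6, 16 and 59 TPM and at 84.5, 47.0 and 66.0 TPM. *Car10*, a carbonic anhydrase-related gene, was at 4.93, 6.86 and 22.7 TPM and at 50.3, 21.3 and 18 TPM.

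Around the members, 6 lists of the pathway were read for context, and 0 of their tested genes were called by limma. Of the other Bcl2 family genes, 10 of 15 were tested, 8 were higher and 2 lower in *Snd1* KO clones, and 0 passed an unadjusted p under 0.05. Their median log2 fold change was 0.20, beside 0.04 over all genes tested. The largest value was that of *Bok*, at 8.66, 5.88 and 13.4 TPM in Control clones and 9.13, 23.9 and 16.9 TPM in *Snd1* KO clones (log2 fold change 0.75, limma adjusted p = 0.637). *Bmf*, a BH3-only gene, was low but did not overlap between groups, at 1.42, 1.26 and 1.52 TPM and at 1.65, 2.35 and 2.26 TPM (log2 fold change 0.36, limma adjusted p = 0.680). *Bnip3l*, a mitophagy receptor, was at 29.7, 29.0 and 27.5 TPM and at 25.7, 45.3 and 42.1 TPM, low in *Snd1* KO 1 alone among the KO clones. Of the other 5, *Bcl2l10* and *Bcl2a1d* had 0 reads in every clone, and *Bcl2a1a*, *Bcl2a1b* and *Bcl2l15* were below the filter.

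Downstream of the membrane, 20 of 20 genes of the apoptosome, the caspases and their inhibitors were tested, 12 higher and 8 lower, with a median log2 fold change of 0.06. *Diablo*, whose protein SMAC relieves the block on caspases, was the 1 gene with an unadjusted p under 0.05, at 5.15, 4.86 and 5.23 TPM in Control clones and 7.38, 8.33 and 6.30 TPM in *Snd1* KO clones (log2 fold change 0.45 with a standard error of 0.16, limma adjusted p = 0.592). *Mtch2*, an outer membrane receptor of truncated BID that is named after its values were seen, was the 1 gene of this list lower in every KO clone, at 65.3, 66.2 and 59.5 TPM and at 58.7, 58.5 and 54.8 TPM (log2 fold change -0.15, limma adjusted p = 0.708). *Xiap*, the caspase inhibitor that SMAC binds, was at 9.71 TPM in Control 3 and 14.3 to 17.5 TPM in the other 5 clones.

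Of the death receptors and adaptors, 7 of 8 were tested, 2 higher and 5 lower, with a median of -0.11 on the log2 scale. *Tnfrsf10b*, the TRAIL receptor, had an unadjusted p under 0.05 and did not overlap, at 1.63, 1.0 and 1.01 TPM and at 2.36, 2.08 and 2.53 TPM (log2 fold change 0.60, limma adjusted p = 0.598). *Tradd* (-0.35) and *Tnfrsf1a* (-0.21), of the TNF receptor complex, had the next values by size. Of p53 and its targets, 12 of 14 were tested, 6 in each direction, with a median log2 fold change of -0.0013. An unadjusted p under 0.05 was found for 2, beside 7.96% of all genes tested. These were *Trp53inp1*, at 14.3, 18.1 and 11.1 TPM and at 21.6, 20.6 and 22 TPM (log2 fold change 0.56, limma adjusted p = 0.583), and *Perp*, at 27.3, 20.1 and 42.7 TPM and at 174, 49.1 and 51.5 TPM (log2 fold change 1.38, limma adjusted p = 0.605), neither of which overlapped between groups. *Phlda3* was at 0.871, 0.367 and 3.43 TPM and at 5.51, 3.11 and 3.09 TPM, lowest like *Bcl2* in Control 1 and Control 2.

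Of 10 stress inputs to BH3-only genes, 5 were higher and 5 lower, with a median of -0.12 on the log2 scale. *Foxo1*, a transcription factor known to act on *Bcl2l11*, had an unadjusted p under 0.05, at 32.5, 33.3 and 37.6 TPM in Control clones and 37.3, 52.0 and 47.9 TPM in *Snd1* KO clones, with overlap between Control 3 and *Snd1* KO 1 (log2 fold change 0.39, limma adjusted p = 0.607). The related *Foxo3*, named after its values were seen, had a log2 fold change of 0.04 (limma adjusted p = 0.960). A part of either factor in the *Bcl2l11* values was not tested. *Trib3*, a target of ATF4 and CHOP, was at 37.9, 48.4 and 48.5 TPM and at 5.69, 34.4 and 41.1 TPM (log2 fold change -1.08, limma adjusted p = 0.692), and *Chac1*, another such target, at 91.4, 119 and 121 TPM and at 21.4, 86.3 and 114 TPM (log2 fold change -0.86, limma adjusted p = 0.713). In both, *Snd1* KO 1 was far below the other 5 clones, as it was in *Bbc3*. *Atf3*, a stress-induced factor, had a value of the opposite sign, at 1.82, 2.42 and 3.99 TPM and at 2.95, 5.02 and 5.32 TPM (log2 fold change 0.55, limma adjusted p = 0.649). *Atf4*, named after its values were seen, was the 1 gene of this list whose groups did not overlap, at 348, 361 and 404 TPM and at 192, 315 and 347 TPM (log2 fold change -0.42, limma adjusted p = 0.646). Of 11 genes whose products act on the member proteins after translation, 7 were higher and 4 lower, and 0 had an unadjusted p under 0.05. *Usp9x*, whose protein stabilizes MCL1, had a log2 fold change of -0.24 and *Ppp3ca*, a calcineurin subunit that dephosphorylates BAD, of 0.19.

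**Figure D5:**
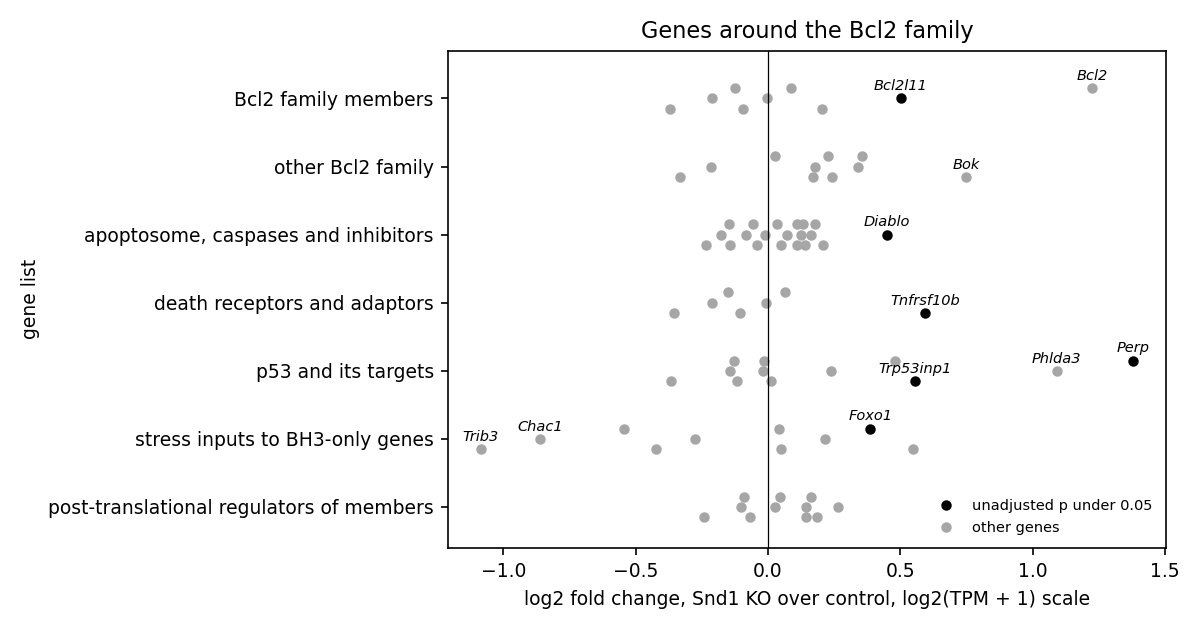
Log2 fold change of *Snd1* KO over Control for each tested gene of the members and of the pathway lists, 1 point per gene, black where the unadjusted p was under 0.05. The values run from -1.08 (*Trib3*) to 1.38 (*Perp*), and *Bcl2l11* is the 1 black point among the members.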

How the data were processed

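RNA of 3 Control and 3 *Snd1* KO clones was sequenced as paired ends. Groups and clone numbers were taken from the sample labels. Methods of the study name the Genialis platform, and the submitters' processing notes name FastQC, Trimmomatic, HISAT2, HTSeq, DESeq2 and mm10 without giving their roles here. The authors deposited TPM per Ensembl gene for each clone. The values sum to 1000000 per clone, and 99 spike-in rows (at most 1.02 TPM in a clone) were left out. Of 53801 gene rows, 53706 matched GENCODE M21.

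The deposited TPM held steps of whole reads. With a gene length to which each annotated transcript adds all its exons, 91.6% of 14851 genes came out whole, and with a fitted length for the others 99.96% of the values above 0 were within 0.01 of a whole number. On chromosomes 16 to 19 only 44.7% of 1966 genes had the M21 length, against 98.9% of 12885 on all others, so these TPM values seem to rest on another annotation release there. Such a length scales the deposited level of *Bak1* and *Bad* alike in every clone, and moved their fold changes on log2(TPM + 1) little. With exon-union lengths the log2 fold change of *Bak1* was -0.089, against -0.096 in the main fit. That of *Bad* was 0.095, against 0.086. The length of *Pmaip1* was fitted to few values. The recovered reads gave depth and Poisson intervals, which cover counting error only. The recovered reads outnumber the reads per library that the methods of the study state. Whether mates of a pair were counted separately is not given in the sources used here, and if so the read counts are of mates and the intervals are too narrow.

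Genes averaging 0.5 TPM or more were tested on log2(TPM + 1) with limma 3.58.1 (lmFit, eBayes with trend) in R 4.3.3, and p-values were adjusted by Benjamini-Hochberg over all 17823 genes. A gene was called at an adjusted p under 0.05 and a difference of 1 or more on the log2 scale. Single members were also compared by an exact permutation test, two-sided. Alternatives were other pseudocounts (0.1, 0.01), filters, scalings, exon-union lengths, voom on the recovered reads, other variance models, clone quality weights, a block by clone number and leaving out each clone. BH3 cores were read from annotated coding exons of GRCm38 with Python 3.11.15.

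The members and gene lists were chosen with earlier results of these data known. Named were all members, and of each list the genes with an unadjusted p under 0.05 and up to 3 with the largest log2 fold change, except where marked and except 2 genes that are not reported here. Same-numbered clones did not deviate together (correlations 0.05, -0.12 and -0.07), so clone numbers were not taken as pairs.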

Additional observations from a re-analysis of the deposited data

How the results depend on the processing

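Of the 9 members tested, *Bcl2*, *Bcl2l1*, *Bax*, *Bcl2l11*, *Bid* and *Bad* kept their direction in all 14 of the alternative fits that can move a fold change, *Bak1* in 13, *Bbc3* in 12 and *Mcl1* in 8. The log2 fold change of *Mcl1* became 0.047 after rescaling without insulin and mitochondrial genes and 0.0032 with each exonic base counted once, and ran from -0.11 to 0.056 when each clone was left out in turn. Leaving out each clone gave -0.20 to 0.0050 for *Bak1* and -0.34 to 0.28 for *Bbc3*, and clone quality weights gave 0.21 for *Bbc3*. Over the alternatives that kept all 6 clones the log2 fold change ran from 1.08 to 1.87 for *Bcl2*, from 0.16 to 0.39 for *Bax*, from -0.17 to -0.046 for *Bak1*, from -0.48 to -0.20 for *Bid* and from 0.040 to 0.16 for *Bad*. The count of called genes over the whole table was 1, and it was 0 without a filter, with voom and without the variance trend, 3 with each exonic base counted once, 2 at an adjusted p under 0.1 and 895 with clone quality weights. Leaving out each clone gave 0 to 2 called genes. With clone number as a replicate block limma called 0 genes, and *Bcl2l11* had a log2 fold change of 0.50 (limma adjusted p = 0.736); the block changed no call of a member. The cause of these shifts was not tested. *Pmaip1* had at most 3 reads in a clone, and the comparison of the other members rests on 3 clones per group.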

Other observations

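Of 9 β cell markers read to check the cell type, 4 were higher and 5 lower in *Snd1* KO clones, and 0 were called by limma. An unadjusted p under 0.05 was found for 3, beside 7.96% of all genes tested. *Neurod1*, a β cell transcription factor, was at 399, 382 and 355 TPM in Control clones against 556, 676 and 726 TPM in the KO clones (log2 fold change 0.78, limma adjusted p = 0.372). *Slc30a8*, the zinc transporter of insulin granules, was at 215, 191 and 744 TPM against 809, 1005 and 779 TPM (log2 fold change 1.45, limma adjusted p = 0.584), and like *Bcl2* it was low in Control 1 and Control 2. *Slc2a2*, the glucose transporter GLUT2, was at 160, 65.0 and 172 TPM against 91.5, 40.5 and 32.8 TPM (log2 fold change -1.27, limma adjusted p = 0.607).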
